A study of Ovis aries with 2 samples.

Results

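MSMB and BST1 are 2 of the 23141 genes listed in both count matrices of Hu sheep anterior pituitary, taken by their gene symbols. MSMB is listed under its own symbol, with gene ID 101119365. BST1 is listed only by a placeholder, LOC101116575, and took its name from the RefSeq gene table through gene ID 101116575. Both genes were chosen because earlier results of these data placed them in gonadotrophs, so their class and age values are a description and carry no test.

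Each library came from the anterior pituitary of Hu sheep, one at 3 months and the other at 6 months of age, on the droplet-based Chromium platform with tissue dissociated in type IV collagenase, and the labels name no treatment. The series title names puberty as its subject. The labels do not state how many animals each library holds, or their sex. With 1 library per age, any difference between ages cannot be told apart from a difference between animals, dissections or library preparations. Every interval below is a 95% interval for counting error only.

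MSMB encodes beta-microseminoprotein, a small secreted protein rich in cysteine that is abundant in seminal fluid and was once studied as an inhibin-like peptide acting on FSH. BST1, also called CD157, encodes a glycosylphosphatidylinositol (GPI)-anchored surface enzyme related to CD38 that makes and hydrolyses the calcium-releasing messenger cyclic ADP-ribose, and it is known from bone marrow stroma and myeloid cells. Gonadotrophs make luteinizing hormone and follicle-stimulating hormone, each a dimer of the shared alpha subunit CGA with a beta subunit, LHB or FSHB, and they respond to gonadotropin-releasing hormone through its receptor GNRHR.

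Values are counts of unique molecular identifiers (UMIs), each standing for 1 captured transcript. Levels are in CPM, a gene's summed UMIs per 1000000 UMIs of the group of cells. Gonadotrophs were gated as cells with LHB at 0.3% or more and CGA at 3% or more of their UMIs. The gate held 1196 of 15446 kept cells (7.74%) at 3 months and 264 of 12683 (2.08%) at 6 months, with medians of 10972 and 18441.5 UMIs per cell. FSHB and GNRHR, which the gate did not use, were 308-fold and 148-fold higher in gated cells than in all other cells at 3 months, and 633-fold and 493-fold higher at 6 months. Gonadotroph markers that had no part in the gate were thus high in its cells in both libraries.

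The files held 142479651 UMIs in 18961 barcodes at 3 months and 175239612 UMIs in 15031 barcodes at 6 months, and 81 barcode sequences occurred in both. Gated cells also carried PRL, the main lactotroph hormone, at 14676 CPM at 3 months and 58684 CPM at 6 months. This was not particular to them. Endothelial-like and immune-like cells together had more PRL at both ages, 27003 and 86365 CPM. Among gated cells at 6 months, PRL was at 47756 CPM in the 155 cells of cluster 29 and 65187 CPM in the 79 of cluster 5. It reached 296228 CPM in the 15 shallow cells of cluster 11. Gated cells high in other pituitary hormones were left out at limits of 2% of UMIs for GH or POMC, 15% for PRL and 0.5% for TSHB. That kept 1163 cells at 3 months and 237 at 6 months. The log2 difference between ages was then -2.73 for MSMB and -3.76 for BST1, against -2.78 and -3.91 with all gated cells. The PRL limit lies above the PRL level of the gated cells at both ages, so the part of PRL in these differences was not tested.

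MSMB was concentrated in gonadotrophs at both ages. At 3 months, 17098 of its UMIs lay in gated cells and 1113 in all other kept cells, so that 93.9% of the transcript was found in 7.74% of the cells. The level was 1227 CPM in gated cells and 9.86 CPM elsewhere, a 124-fold difference (interval 117 to 132). At least 10-fold higher levels in gated cells were seen for 0.737% of the 14116 genes with enough UMIs, and MSMB ranked 8th of them all, behind FSHB in first place and LHB in 5th.

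At 6 months the gated cells held 899 MSMB UMIs and all other cells 406, or 178 against 2.62 CPM, a 67.9-fold difference (60.3 to 76.5). A single cell carried 347 of those 406 UMIs. Without it, 59 UMIs were left outside the gate, 93.8% of MSMB lay in gated cells, and the fold was 467 (359 to 619). The share of MSMB found in gonadotrophs was thus about the same at both ages once that cell was set aside.

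BST1 was enriched in the same cells but was less exclusive to them at 6 months. At 3 months gated cells held 5653 BST1 UMIs and the others 495, or 406 against 4.38 CPM, a 92.5-fold difference (84.4 to 102) that ranked 10th. At 6 months they held 136 UMIs against 148, or 27.0 and 0.957 CPM, a 28.2-fold difference (22.2 to 35.8) that ranked 52nd. At that age 0.791% of 14037 genes were at least 10-fold higher in gated cells, and MSMB, with every cell counted, ranked 34th. Gated cells held 47.9% of the BST1 UMIs at 6 months and 91.9% at 3 months.

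**Figure D1:**
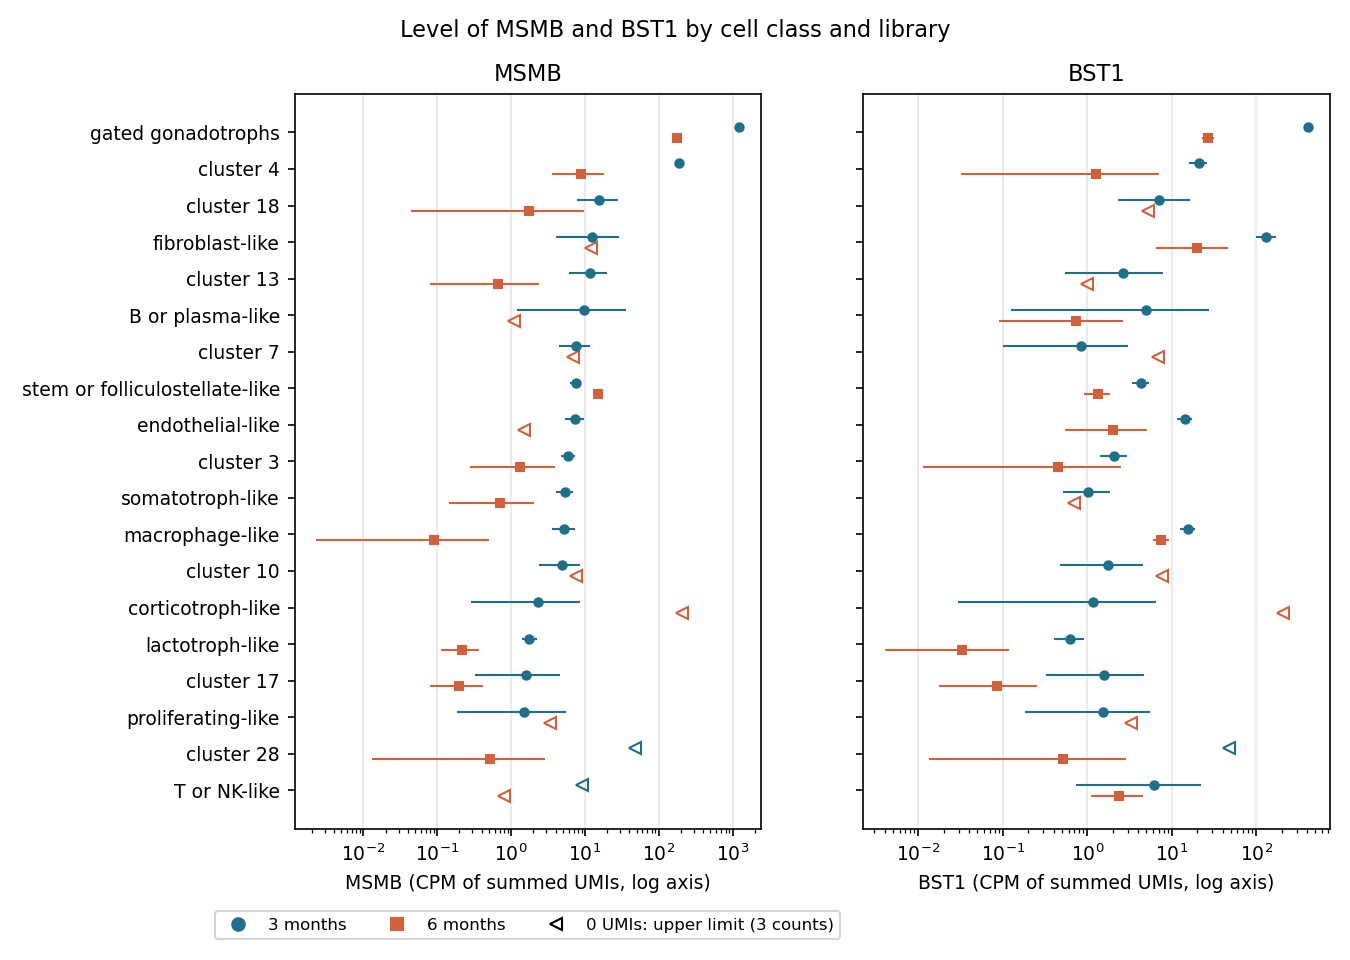
Level of MSMB (left) and BST1 (right) in CPM of summed UMIs, on a log axis, in gated gonadotrophs and in each other cell class or unnamed cluster with at least 50 cells in 1 library or both. Circles are the 3-month library, squares the 6-month library, bars 95% counting intervals, and open triangles the upper limit that 0 UMIs allow. Gated gonadotrophs have the highest measured level of both genes in both libraries, and fibroblast-like cells come next for BST1. At 6 months the fibroblast-like interval for BST1, 6.52 to 46.8 CPM, spans the gated level of 27.0 CPM.

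Cells that clustered with gonadotrophs without passing the gate also had MSMB: 40 such cells at 3 months had 147 CPM (101 to 206) of MSMB and 93.5 CPM (57.9 to 143) of BST1, and 13 at 6 months had 26.2 and 14.9 CPM. In the classes named for other cell types MSMB was low. At 3 months it stood at 7.40 CPM in endothelial-like cells, 7.48 in stem or folliculostellate-like cells, 5.23 in macrophage-like cells, 5.32 in somatotroph-like cells and 1.77 in lactotroph-like cells. In these classes MSMB came with 15.004 to 47.0 UMIs for every 1000 LHB UMIs, and gated cells had 42.5. MSMB in these classes thus stood to LHB in a ratio like that of gonadotrophs or below it at 3 months. Free RNA keeps such ratios, and its part in these low levels was not tested. At 6 months MSMB had 0 UMIs in endothelial-like cells, which allows up to 1.84 CPM by the exact interval, and 0.0894 CPM in macrophage-like cells. Lactotroph-like and somatotroph-like cells then had 13 and 3 MSMB UMIs, or 9.48 and 16.4 per 1000 LHB UMIs, above the 5.43 of gated cells.

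BST1 stood above the gonadotroph ratio to LHB in some classes. It was at 9.07 UMIs per 1000 LHB UMIs in somatotroph-like cells and 5.27 in lactotroph-like cells of the 3-month library, below the 14.0 of gated gonadotrophs. Fibroblast-like cells of the 3-month library had 53 BST1 UMIs in 142 cells, or 131 CPM (98.1 to 171), and 19.5% (11.3 to 30.1, exact) of the 77 cells deep enough to be thinned to 2000 UMIs had the transcript. That is 530 BST1 UMIs per 1000 LHB UMIs. Scaled by LHB at the gonadotroph ratio, 3.47 CPM would be present in these fibroblast-like cells. Endothelial-like and macrophage-like cells had 14.2 and 15.4 CPM, with 77.6 and 89.3 BST1 UMIs per 1000 LHB UMIs, where the gonadotroph ratio gives 2.57 and 2.42 CPM.

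BST1 in these 3 classes was lower at 6 months too, by different amounts. Macrophage-like cells went from 15.4 to 7.51 CPM, a log2 difference of -1.03 (-1.48 to -0.59) with 94 and 84 UMIs. Different clusters held most of that class at each age: cluster 6 had 1155 cells at 3 months and 25 at 6 months, and cluster 9 had 75 and 1042. Endothelial-like cells went from 14.2 to 1.99 CPM, a log2 difference of -2.83 (-4.74 to -1.42) on 4 UMIs at 6 months. Cluster 26, with 2 and 171 cells, joined cluster 0, with 1874 and 265, in that class. Fibroblast-like cells had 20.1 CPM at 6 months from 5 UMIs in 31 cells, a log2 difference of -2.71 (-4.39 to -1.39). Macrophage-like cells, the best measured of these classes at 6 months, showed the smallest difference.

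Between the ages, both transcripts were lower in the 6-month gonadotrophs while the hormone subunits differed little. MSMB was at 1227 CPM (1209 to 1245) at 3 months and 178 CPM (167 to 190) at 6 months, a log2 difference of -2.78 (-2.88 to -2.69), or 6.88-fold. BST1 was at 406 CPM (395 to 416) and 27.0 CPM (22.6 to 31.9), a log2 difference of -3.91 (-4.17 to -3.67), or 15.05-fold. Among the 9789 genes with at least 100 UMIs, 7.95% were at least 2-fold lower at 6 months and 2.98% at least 2-fold higher. BST1 had the 15th and MSMB the 38th lowest log2 difference of these genes, with a count of 0 set to 3.

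The genes that define gonadotrophs had other values. LHB was at 28879 CPM at 3 months and 32812 at 6 months, a log2 difference of 0.18. CGA was at 171662 and 202096 CPM, a log2 difference of 0.24. FSHB was at 1646 and 1174 CPM, a log2 difference of -0.49 (-0.53 to -0.45). GNRHR was at 355 and 335 CPM, with a log2 difference of -0.09 (-0.17 to -0.01). IGFBP1, a secreted binding protein for insulin-like growth factors, had 1 UMI in the 3-month gated cells and 3082 at 6 months. The members thus differed by age far more than the 2 gonadotropin subunits or the receptor did.

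The median gene differed by -0.17, and 778 genes were lower and 292 higher. Scaling by TMM moved the median by 0.15 and the split to 552 lower and 392 higher, and leaving hormone genes out of the totals gave 553 and 389. MSMB and BST1 were lower at 6 months under each of these scalings, with MSMB at -2.63 and BST1 at -3.76 under both, while GNRHR, at -0.09, lies within that shift of 0.

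The lower sums came with fewer cells holding the transcript and with fewer UMIs per cell. To compare cells at equal depth, each was thinned to 2000 UMIs, leaving out shallower cells. MSMB was then found in 69.1% (66.2 to 71.9) of 1058 cells at 3 months and 23.6% (18.5 to 29.3) of 254 at 6 months. Without thinning the shares were 88.1% and 69.3%. BST1 was found in 48.3% (45.2 to 51.4) and 5.12% (2.75 to 8.59) of thinned cells, and in 76.3% and 29.5% without thinning.

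As a background level for MSMB, 1.46% of thinned endothelial-like cells had it at 3 months and none of 356 at 6 months, with median depths of 2750 and 3303 UMIs before thinning. For BST1, lactotroph-like cells served, where 0.160% of 1872 thinned cells had it at 3 months and none of 2721 at 6 months, with median depths of 20534 and 20572.5 UMIs. The gated shares of both genes were above these at both ages. Lactotroph-like cells are low in BST1, and not every class lay below the gated share. At 6 months 15.8% (3.38 to 39.6) of 19 thinned fibroblast-like cells had BST1, against the gated 5.12% (2.75 to 8.59), intervals that overlap.

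**Figure D2:**
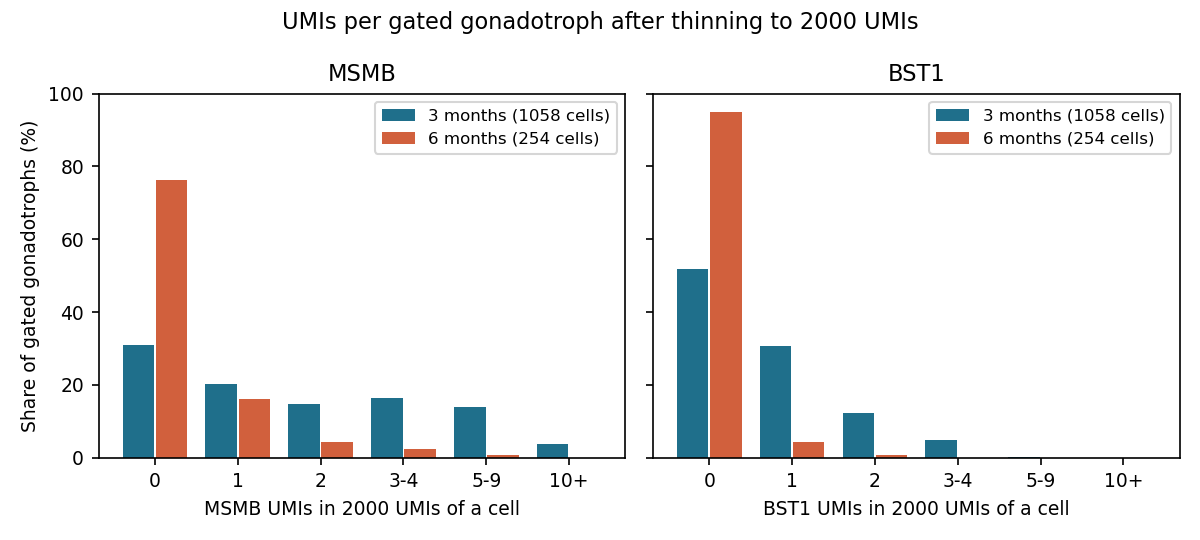
Share of gated gonadotrophs (y axis, percent of cells) with each number of UMIs (x axis) of MSMB and BST1 after every cell was thinned to 2000 UMIs, for the 3-month and the 6-month library. At 6 months 76.4% of cells had no MSMB UMI and 94.9% no BST1 UMI, against 30.9% and 51.7% at 3 months.

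Over single gonadotrophs of the 3-month library the level of MSMB had a wide spread. The lower quartile, median and upper quartile of MSMB per cell were 274, 736 and 1598 CPM, and 1 cell reached 167 UMIs. After thinning, 327 cells had none, 40 had 10 or more, and the 10% of cells with the most held 40.5% of the UMIs. The coefficient of variation of the thinned counts was 1.40 for MSMB, 1.53 for FSHB and 0.493 for LHB. MSMB was therefore spread over cells more like FSHB than like LHB, though a low mean count widens this measure by itself.

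At 6 months the quartiles of MSMB were 0, 93.3 and 239 CPM, and the highest cell had 42 UMIs. For BST1 the 3-month quartiles were 79.0, 295 and 527 CPM with at most 33 UMIs in a cell, and at 6 months the median was 0, the upper quartile 37.5 CPM and the highest cell 5 UMIs. The 6-month median of MSMB lay below the 3-month lower quartile, and so did the 6-month upper quartile of BST1.

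Neither gene followed LHB closely from cell to cell. At 3 months, Spearman's rho with LHB over 1058 thinned cells was 0.15 for MSMB and 0.14 for BST1, and at 6 months over 254 cells it was 0.12 and 0.02. These cells share a library and the gate cuts off low LHB, so the values only describe the gated range. At 5000 UMIs per cell, kept by 884 and 225 cells, the values were 0.15 and 0.23 at 3 months and 0.23 and 0.16 at 6 months. All of these are weak.

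Because LHB is part of the gate, the members were also followed across it among all cells with CGA at 3% or more. Just outside the LHB limit, in the 31 cells of the 3-month library at 0.15% to 0.3%, MSMB was at 492 CPM and BST1 at 35.5 CPM. Just inside, in the 41 cells at 0.3% to 0.6%, MSMB was at 734 and BST1 at 88.9 CPM. Above that, MSMB ran from 539 CPM in 61 cells at 0.6% to 1% LHB up to 1499 CPM in 106 cells at 5% or more. BST1 was at 202, 331, 446, 428 and 453 CPM over the same 5 groups. Further outside, MSMB was at 794 CPM in 54 cells at 0.05% to 0.15% LHB and 96.7 CPM in 282 cells below that, and BST1 at 37.2 and 19.0 CPM. From 0.05% to 1% LHB, MSMB thus lay between 492 and 794 CPM with no order across the limit. Below 0.05% it was far lower. The groups next to the limit differed, with intervals of 399 to 600 CPM outside and 626 to 854 inside. BST1 was lower in each group outside the limit. At 6 months MSMB outside it was at 4.59 CPM in 59 cells below 0.05% LHB. It was at 0 and 43.2 CPM in the next groups, of 4 cells each, against 28.9 to 262 CPM inside. At the CGA limit, among cells past the LHB limit of the 3-month library, MSMB was at 337 CPM in 27 cells just outside (2% to 3% CGA) and 841 CPM in 82 cells just inside (3% to 5%), and BST1 at 99.4 and 189 CPM.

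**Figure D3:**
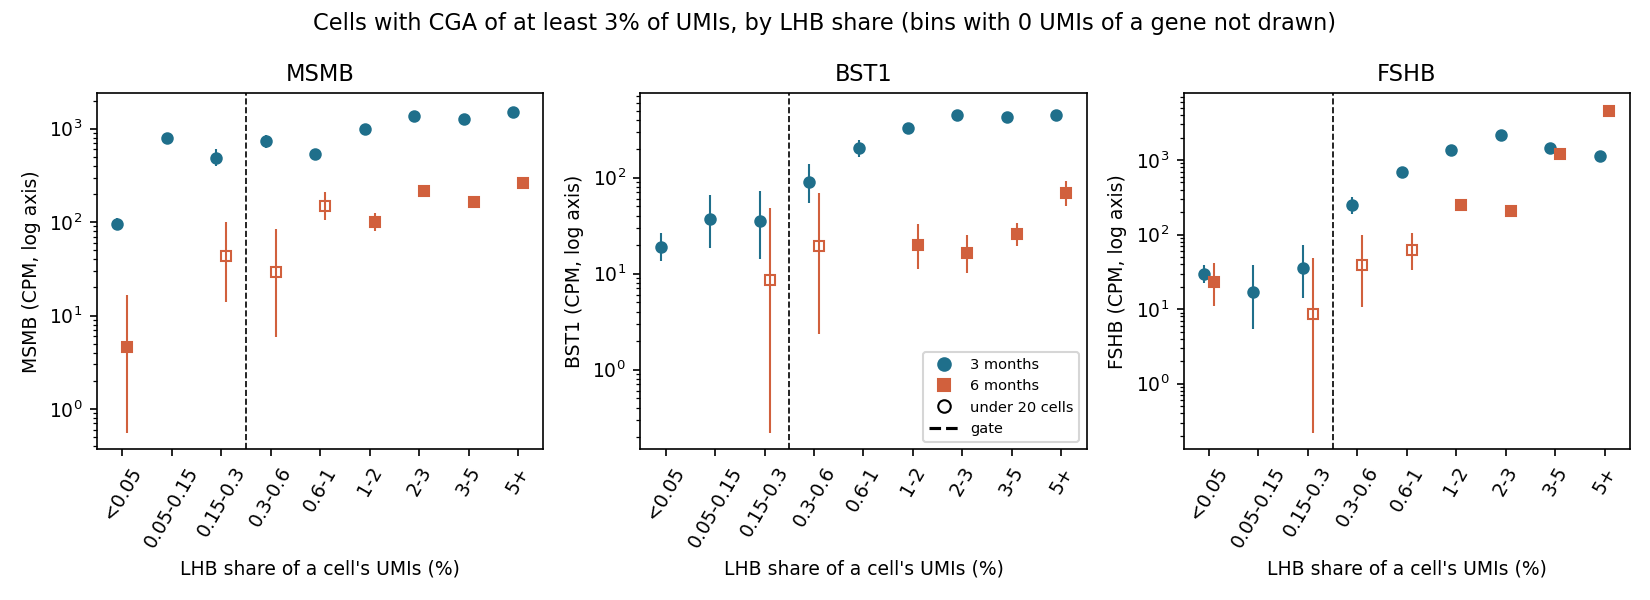
Level of MSMB, BST1 and FSHB in CPM (log y axes) over cells with CGA at 3% or more of UMIs, grouped by the share of UMIs that were LHB (x axis), in both libraries; bars are 95% counting intervals, the dashed line marks the 0.3% limit of the gate, open symbols are groups under 20 cells, and groups with 0 UMIs are not drawn. In each LHB group drawn inside the gate MSMB and BST1 lie lower at 6 months, while FSHB at 5% LHB or more lies higher.

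At equal LHB share the age difference was still present. In the 4 groups from 1% LHB upward, which hold 26 to 107 cells at 6 months, the log2 difference of MSMB was -3.31, -2.64, -2.93 and -2.52. That of BST1 was -4.05, -4.77, -4.05 and -2.71. The 2 lowest groups held only 9 and 7 cells at 6 months, where MSMB differed by -4.66 and -1.84 and BST1 by -2.20 in the first and had 0 UMIs in the other. Both genes were lower at 6 months in each group. Among the 4 groups from 1% LHB upward, the BST1 difference was smallest in the cells richest in LHB.

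The members stood differently to FSHB. At 3 months, BST1 was found in 57.6% (53.2 to 61.9) of the 519 thinned gonadotrophs with FSHB and in 39.3% (35.2 to 43.6) of the 539 without. MSMB was found in 69.6% (65.4 to 73.5) and 68.6% (64.5 to 72.5). The shares of BST1 do not overlap within their counting intervals, whereas those of MSMB differed by less than their intervals.

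Ordering the same cells by their FSHB share showed a difference in level for both genes. From the 411 cells with no FSHB through 3 groups of 216, 215 and 216 cells of rising FSHB, BST1 was at 261, 368, 474 and 539 CPM. MSMB was at 1388, 1394, 1219 and 927 CPM over these groups. BST1 was thus highest, and MSMB lowest, in the cells richest in FSHB. The median depth of these groups also rose, from 8367 to 18023 UMIs per cell, and its part in the result was not tested. At equal depth Spearman's rho of BST1 with FSHB was 0.20, and 0.31 at 5000 UMIs, while that of MSMB with FSHB was -0.03 and -0.05.

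**Figure D4:**
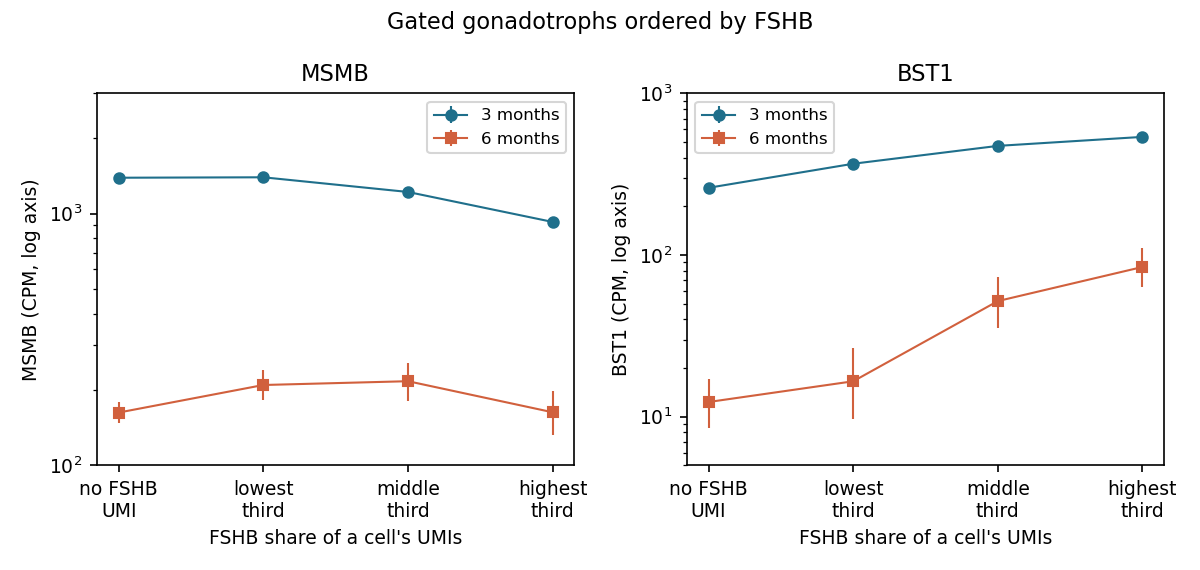
Level of MSMB (left) and BST1 (right) in CPM, on a log axis, in gated gonadotrophs with no FSHB UMI and in 3 groups of equal size ordered by their FSHB share, for both libraries. Bars are 95% counting intervals; at 3 months BST1 lies at 261 CPM without FSHB and 539 CPM in the group with most, and MSMB at 1388 and 927 CPM.

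At 6 months BST1 again was higher with more FSHB, at 12.3 CPM in 148 cells without it and at 16.6, 51.9 and 84.4 CPM in 35, 35 and 36 cells of rising FSHB. These are 34, 17, 32 and 53 UMIs. MSMB stood at 162, 209, 216 and 162 CPM, with no order. Of the thinned cells, BST1 was found in 10% (4.12 to 19.5) of 70 with FSHB and 3.26% (1.21 to 6.96) of 184 without, intervals that overlap. At 5000 UMIs per cell the shares were 25% (15.5 to 36.6) of 72 and 7.84% (4.12 to 13.3) of 153, intervals that do not overlap, and rho was 0.26. In the 6-month library LHB and FSHB themselves went together, with a rho of 0.49, against 0.04 at 3 months.

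The relation to FSHB was smaller within a single cluster. Within cluster 5 alone, which held 766 of the gated cells at 3 months, 59.2% (54.4 to 64.0) of cells with FSHB had BST1 and 48.1% (42.7 to 53.5) of cells without. The rho of BST1 with FSHB was 0.13 there and 0.22 at 5000 UMIs, against 0.20 and 0.31 over all gated cells. For MSMB the values were -0.08 and -0.09. At 6 months cluster 5 had 79 gated cells and its rho for BST1 changed sign with the depth, from -0.10 to 0.10, so that no relation could be described within it.

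By cluster, the gonadotrophs of the 3-month library agreed in the summed level of MSMB and differed in BST1. MSMB was at 1229 CPM in the 140 gated cells of cluster 4, 1237 in the 766 of cluster 5 and 1206 in the 240 of cluster 11, with overlapping counting intervals. The share of thinned cells with MSMB was lower in cluster 4, at 59.7% of 134 cells against 71.4% of 761 and 71.9% of 128. BST1 was at 117 (99.0 to 138), 445 (433 to 458) and 344 (300 to 393) CPM, lowest in cluster 4, where FSHB was at 85.6 CPM against 1844 and 1476 in clusters 5 and 11. Cluster 11 has shallow cells, with a median of 2086.5 UMIs, and it had the same MSMB level as the deep cells of cluster 5.

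The 6-month gonadotrophs lay largely in another cluster. Cluster 29 held 155 of the 264 gated cells, 79 lay in cluster 5 and 15 in cluster 11. Cluster 29 was led by IGFBP1 and took no gonadotroph name by its leading genes, but its gated cells had LHB at 29657 and GNRHR at 383 CPM. MSMB was at 165 CPM (151 to 179) in cluster 29 and 223 CPM (199 to 250) in cluster 5. BST1 was at 12.3 CPM (8.84 to 16.7) and 62.3 CPM (49.9 to 76.9). Both genes were lower in cluster 29, BST1 more so, and FSHB was at 79.0 CPM there against 3998 in cluster 5.

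Cluster 5 alone gave a log2 difference between ages of -2.47 (-2.64 to -2.31) for MSMB and -2.84 (-3.16 to -2.53) for BST1. Its gated cells were not otherwise alike at the 2 ages. PRL was at 14375 CPM at 3 months and 65187 at 6 months, and CGA at 179245 and 122700. LHB and FSHB were higher at 6 months in that cluster, by 0.55 and 1.12. The age difference of BST1 was thus smaller within cluster 5 than over the gate, a factor of more than 2 on the linear scale, and that of MSMB only a little smaller.

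**Figure D5:**
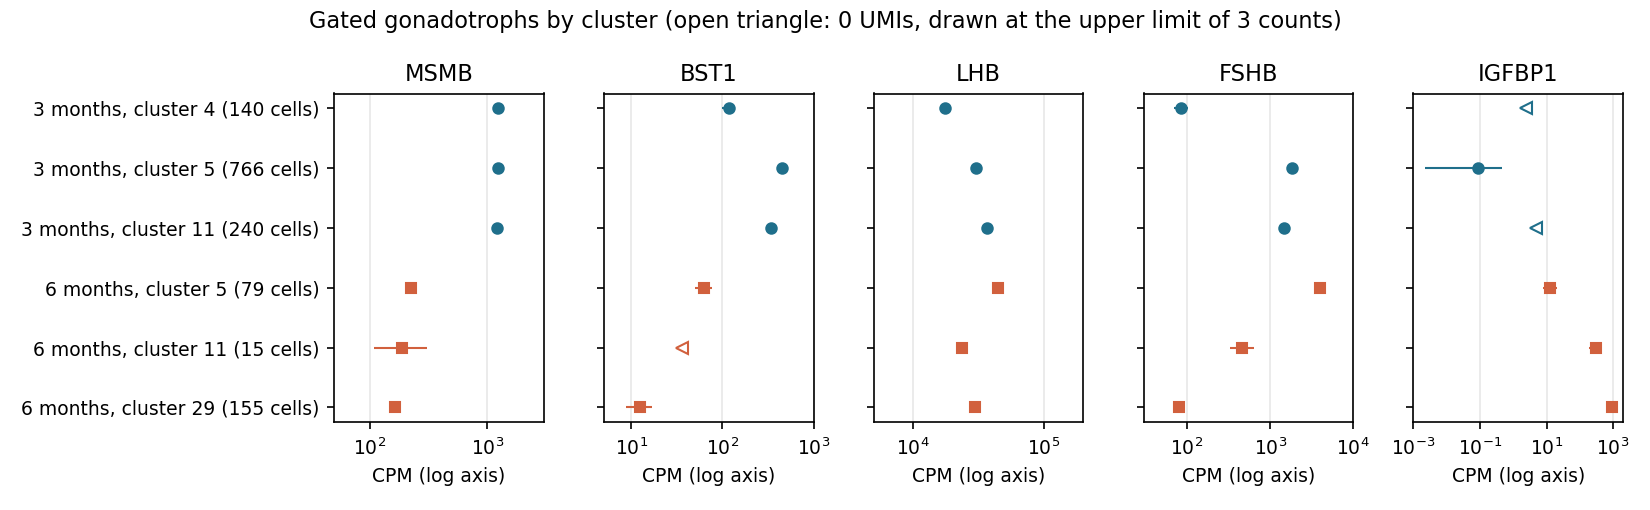
Level of MSMB, BST1, LHB, FSHB and IGFBP1 in CPM (log axes) in the gated gonadotrophs of each cluster holding at least 15 of them, by library. Bars are 95% counting intervals, often smaller than the symbols, and open triangles mark the upper limit for 0 UMIs. MSMB lies at 1206 to 1237 CPM in the 3 clusters of the 3-month library and at 165 to 223 CPM in those of the 6-month library.

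IGFBP1 could be set against the members only at 6 months. After thinning, 115 gated cells had an IGFBP1 UMI and 139 had none. MSMB was at 124 CPM in the first and 220 CPM in the second, a log2 difference of -0.82 (-1.03 to -0.62). BST1 was at 10.5 and 39.9 CPM, from 23 and 113 UMIs, a log2 difference of -1.93 (-2.65 to -1.27). Both members were lower in cells with IGFBP1. FSHB was at 37.3 against 2057 CPM in the same split, whereas LHB differed by -0.18.

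Spearman's rho of MSMB with IGFBP1 over 254 cells was -0.13 at 2000 UMIs and -0.24 over 225 cells at 5000. For BST1 it was -0.003 and -0.19, the first of these on only 13 cells with a BST1 UMI. Of the 115 cells with IGFBP1, 104 lay in cluster 29, as did 49 of the 139 without, so the split by IGFBP1 is largely a split by cluster.

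The 6-month cells without any IGFBP1 UMI still had less of both transcripts than the 3-month gonadotrophs. In those 101 cells MSMB was at 246 CPM and BST1 at 62.6 CPM, log2 differences of -2.32 (-2.47 to -2.17) and -2.70 (-3.003 to -2.41) from all gated 3-month cells. FSHB was higher in them than at 3 months, at 3482 CPM and a log2 difference of 1.08. The 163 cells with IGFBP1 had MSMB at 149 CPM and BST1 at 11.4 CPM, log2 differences of -3.04 and -5.15. Both genes were thus lower at 6 months in cells with and without IGFBP1, and BST1 was lowest in those with it.

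MSMB and BST1 went together only weakly among single gonadotrophs. At 3 months, 71.6% of the 511 thinned cells with BST1 had MSMB, against 66.7% of the 547 without, and rho was 0.06. At 5000 UMIs per cell rho was 0.14, and MSMB was found in 89.9% (87.4 to 92.1) of 656 cells with BST1 and 79.8% (74.0 to 84.8) of 228 without, intervals that do not overlap. At 6 months rho at 5000 UMIs was 0.03.

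MSMB was also found in cells outside the gate that had CGA but little LHB. Cluster 4, led by the calcium sensor gene SCGN with CNTN3, EGR4 and NEUROD1, was left unnamed. Its nearest class was gonadotroph, by 6 markers. At the finer clustering resolution of 2.0 in place of 1.0, a cluster led by SCGN, CNTN3 and EGR4 was named corticotroph-like, by POMC, NEUROD1 and PCSK1. The name of such cells thus depends on the clustering. Outside the gate lay 435 of the 3-month cells of cluster 4. They had 581 MSMB UMIs, or 186 CPM (171 to 201), found in 105 cells (24.1%), and 65 BST1 UMIs, or 20.8 CPM (16.02 to 26.5). LHB was at 540 CPM, a level that the gate holds down. MSMB in these cells was above its 1.77 to 7.48 CPM in the lactotroph-like, somatotroph-like, macrophage-like, endothelial-like and stem or folliculostellate-like cells of the same library.

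Of these 435 cells, 313 passed the CGA limit and failed only on LHB. In 20 of the 435 MSMB reached 10 UMIs or more, up to 27, a limit chosen after the values were seen. POMC, the corticotroph hormone precursor, had 6976 UMIs in the 435 cells, 3527 of them in 1 cell, and TSHB, the thyrotroph subunit, had 521. Their part in the result was not tested. At 6 months the 93 such cells had 7 MSMB UMIs, or 8.89 CPM, and 1 BST1 UMI.

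Genes with the pattern most like each member were sought over 32 combinations of class and library with at least 50 cells, among 9788 genes, by Pearson's r of log2(CPM + 10). For MSMB these were TMEM212 (0.96), SSTR3 (0.95), NPTX2 (0.95), TFF2 (0.93), LOC121819825 (0.90) and SLC7A14 (0.90). SSTR3 encodes a somatostatin receptor, NPTX2 a neuronal pentraxin and TFF2 a secreted trefoil peptide. LHB ranked 8th at 0.89, GNRHR 9th, FSHB 20th and BST1 46th at 0.79. For BST1 they included ITGBL1 (0.84), ADRA2A (0.82), NRXN2 (0.81), PITX3 (0.80) and RASL11A (0.80), and MSMB ranked 9th. ADRA2A encodes an adrenergic receptor and PITX3 a homeobox transcription factor. Combinations from 1 library share its depth and free RNA, so r carries no test.

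Of the 6 genes most like MSMB, TMEM212 differed by -1.32 between ages in gated cells, NPTX2 by -1.34 and SLC7A14 by -1.07, while SSTR3 was at -0.99, TFF2 at -0.20 and LOC121819825 at -0.02. Of those most like BST1, NRXN2 differed by -2.12 and RASL11A by -1.22, with ITGBL1 at -0.87, PITX3 at -0.83 and ADRA2A at 0.35. None of the genes named here differed by as much as the member it was matched to.

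For single cells, likeness was taken from a separate random draw of 2000 UMIs per cell, so a pair's rho can differ from the value above. Over single cells no gene followed either member closely. At 3 months the highest rho with MSMB was 0.18 for CST3 and CHGB, then 0.17 for WFDC2 and 0.15 for OTOS. Those with BST1 were IGFBP2 (0.23), FSHB (0.22), CGA (0.18) and CST3 (0.16). At 6 months the highest with MSMB were LOC101122398 (0.25), NPW (0.23), MANF (0.23) and IFT74 (0.21), and the lowest of 2101 genes was IGFBP1 at -0.23, where the other draw gave -0.13. With BST1 they were VDAC1 (0.26), RANBP1 (0.25), CDC42BPA (0.23) and RERE (0.22). In sparse counts such values are weak, and FSHB among the top genes for BST1 repeats the relation described above.

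BST1 was set beside the other genes of nicotinamide adenine dinucleotide (NAD) metabolism and cyclic ADP-ribose signalling. Of 27 listed genes, 26 were matched in the table, CD38 not being among them, and 13 had at least 100 UMIs in gated cells. BST1, RYR2 and NMNAT2 were at least 2-fold lower at 6 months, 3 of 13 where 7.95% of all genes were, and 0 were at least 2-fold higher, where 2.98% of all genes were. This count and the list's median include BST1, which was chosen with its values known, so only RYR2 and NMNAT2 add to it. RYR2, a calcium release channel of the endoplasmic reticulum, differed by -1.16 (-1.99 to -0.41), on 105 and 17 UMIs. NMNAT2, an enzyme that makes NAD, differed by -1.11 (-1.50 to -0.74). The list's median was -0.36 against -0.17 over all genes. With TMM scaling NMNAT2 fell short of 2-fold and NADK2, an NAD kinase at 0.90, passed it upward. That left 2 of 13 lower and 1 higher, beside 552 and 392 of all 9789 genes under that scaling. BST1 was far below the other measured genes of this list, of which the next lowest was at -1.16. Genes under 100 UMIs were not compared, among them RYR3, with 31 and 0 UMIs, and NNMT, with 1 and 6.

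GPI-anchored surface proteins formed the other list that holds BST1. Of 28 genes, 26 were matched and 16 measured, with a median of -0.59 against -0.17 over all genes. BST2 was not matched under that symbol. A gene listed as BST-2A, with 216 and 28 UMIs and a log2 difference of -1.48, was not counted. BST1, CNTN3 (-2.31), GPC3 (-1.97), THY1 (-1.49) and GPC1 (-1.16) were at least 2-fold lower, and LSAMP (1.13) was higher, under UMI totals and TMM alike. These are 5 of 16 lower and 1 higher, beside 7.95% and 2.98% of all genes. With TMM, 552 of all 9789 genes were lower and 392 higher. The count and the list's median include BST1, which was chosen with its values known. CNTN3 is a contactin, GPC1 and GPC3 are glypicans and THY1 and LSAMP are adhesion molecules of the immunoglobulin family.

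MSMB had no measured relative in these cells. Of its related gene MSMP and its known binding partners CRISP3 and PI16, MSMP and CRISP3 had 0 UMIs in the gated cells of both libraries and PI16 had 1.

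Among 30 regulators of gonadotrophs and of their hormone output, 23 were measured, and their median was -0.57 against -0.17 over all genes. EGR1, the early response factor that drives LHB, differed by -1.64, the oestrogen receptor ESR1 by -1.37, the transcription factors FOXL2 by -1.13 and PITX1 by -1.04, and the phosphatase gene DUSP1 by -1.003, all at least 2-fold lower. These are 5 of 23, beside 7.95% of all genes, and 0 of 23 were at least 2-fold higher, beside 2.98%. EGR1 and DUSP1 were not enriched in gonadotrophs. Their log2 ratios of gated to other cells were 0.12 and -0.72 at 3 months and -0.60 and -0.54 at 6 months. With TMM scaling only EGR1 and ESR1 passed downward and the progesterone receptor PGR, at 0.94, passed upward. These 2 and 1 of 23 stood beside 552 and 392 of all 9789 genes under that scaling. None of the 23 reached the difference of MSMB or BST1. Among listed genes with too few UMIs to be measured, NR5A1, with 28 and 1 UMIs, differed by -3.34 (-8.70 to -0.74). LHX4, with 8 and 10 UMIs, differed by 1.79 (0.30 to 3.33).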

How the data were processed

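The deposited matrices hold raw UMI counts of each gene in each barcode. The submitters' processing notes name version 5.0.0 of Cell Ranger and the file headers name 5.0.1. The genome build was not given in the sources used here, so no coordinates or sequences are printed. Gene IDs were matched to the RefSeq table of ARS-UI_Ramb_v3.0 (22726 of 23141 matched).

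The cell filter was 500 genes and 1000 UMIs, passed by 16368 and 13253 barcodes at 3 and 6 months, less 922 and 570 Scrublet doublets. Cells were clustered with scanpy 1.11.5 (3000 variable genes without hormones, ribosomal genes, MSMB and BST1, 30 components, 15 neighbours, Leiden resolution 1.0, 30 clusters). Clusters were called X-like from at least 3 fixed markers at a mean log2 fold of 0.7. Hormone classes also needed a marker among the 10 leading genes, a condition set after the clusters were seen. Gated cells form their own class whatever their cluster. Free RNA was not subtracted.

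Intervals are exact: Poisson for sums, Clopper-Pearson for shares and conditional binomial for ratios, all at 95%. Cells are not replicates, so nothing was tested. A zero-count floor of 3 counts was used in drawing. It was also used in the log2 ratios of all genes that gave the ranks, the 2-fold counts and the medians. TMM factors came from edgeR 4.0.16. The calculations were tested on simulated data. The members, gene lists and named-gene rule (likeness by the highest r or rho, list members at least 2-fold apart) were chosen with earlier results of these data known; 1 gene that the rule names is not reported here. Alternatives were the scaling, gate, cell filter, thinning depth, IGFBP1 limit, free RNA level and clustering resolution.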

Additional observations from a re-analysis of the deposited data

How the results depend on the processing

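No paired analysis was possible because each age has 1 library, and no replicate could be left out. MSMB and BST1 were lower at 6 months and higher in gated cells than in other cells under every alternative run. The log2 age difference of MSMB ranged from -2.79 to -2.32: it was -2.63 with TMM and -2.63 with hormone genes left out of the totals, -2.67 in gonadotroph-like clusters in place of the gate, -2.32 in cells with 0 IGFBP1 UMIs and -2.59 without cluster 29. That of BST1 ranged from -4.26 (stricter gate) to -2.69 (0 IGFBP1 UMIs), with -3.65 for the mean of per-cell CPM, -3.06 in gonadotroph-like clusters and -2.87 without cluster 29. With 0 IGFBP1 UMIs, in gonadotroph-like clusters and without cluster 29 it was over 1.5 times less on the linear scale than with all gated cells.

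The log2 ratio of gated to other cells moved with the limits of the gate. For MSMB at 3 months (6.96) it was 4.72 with the stricter gate, 5.60 with clusters, 7.42 with the looser gate, 6.48 for per-cell CPM, 6.85 without hormone genes and 6.71 with all barcodes. For MSMB at 6 months (6.09) it was 5.54, 4.96 and, without the 1 cell with most MSMB, 8.87. For BST1 at 3 months (6.53) it was 5.11 with the stricter gate, 6.21 with clusters, 5.50 for per-cell CPM, 6.39 with all barcodes and 7.07 with the stricter cell filter. For BST1 at 6 months (4.82) it was 4.25, 5.41 and 3.90 under the first 3 of these. The causes were not tested. The rank correlation of MSMB with FSHB at 6 months went from -0.03 to 0.13 at 5000 UMIs. Omitting cluster 29, omitting cluster 4 and omitting the 1 cell were chosen after seeing the data. BST1 at 6 months rests on 136 UMIs, which limits what can be said of it by cell.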

Other observations

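The single 6-month cell with the most MSMB outside the gate lay in cluster 21, among the stem or folliculostellate-like cells. It had 347 MSMB UMIs of 12812, or 2.71% of its UMIs, more than any gated gonadotroph in count (167 at most) or in share (2.48% at most). It had 1 LHB UMI, 4 CGA UMIs, 79 PRL UMIs and no BST1 UMI. The other 2132 cells of that class held 14 MSMB UMIs, at most 1 each, or 0.582 CPM. With that cell included the class showed 15.01 CPM at 6 months against 7.48 at 3 months, a log2 difference of 1.01 (0.72 to 1.30). The cell was singled out after its values were seen.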
